A study of Mus musculus with 6 samples.

Results

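The genes described here are the metallothionein genes Mt1 and Mt2, Mtf1, which encodes the metal-responsive transcription factor MTF1, and Slc30a1, which encodes the zinc exporter ZnT1. They were taken by gene name from the table of the whole series, and all 4 were found among its 21686 genes. Mt1 and Mt2 were selected partly on their read counts, which were lower in cells treated with EPC-EVs, the extracellular vesicles of bone marrow endothelial progenitor cells. Their values in the vesicle-treated libraries are therefore given as a description, without a test.

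Metallothioneins are small, cysteine-rich proteins that bind zinc and copper and also buffer cadmium and oxidants. When free zinc rises in a cell, MTF1 binds metal response elements in the promoters of Mt1, Mt2 and Slc30a1 and raises their transcription. ZnT1 then carries zinc out across the plasma membrane, while proteins of the Slc39 family carry it into the cytosol. Glucocorticoids such as dexamethasone are also known inducers of metallothionein genes in several tissues, and zinc is needed for mineralization by osteoblasts.

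RNA was sequenced from cells of the mouse osteoblast precursor line MC3T3-E1 Subclone 14, cultured for 72 hours in 3 groups with 2 libraries each. The control group received 100 µL of PBS, the dexamethasone group 10 µM dexamethasone, and the dexamethasone + EPC-EVs group 10 µM dexamethasone together with 100 µg of EPC-EVs, which the labels call EPCs-exo. The design text of the series names fibroblasts, a shorter time and no PBS group instead, and the labels of the samples were followed. All cells come from 1 line, and vesicles without dexamethasone were not among the groups used here. The question was how the hormone, and the vesicles added to it, altered the RNA of the osteoblasts.

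The libraries held from 5146760 to 6583735 counts in the control and dexamethasone groups and 12864009 and 13182014 counts in the dexamethasone + EPC-EVs group. A count of 0 allows up to 3 counts for counting error only, or 0.228 to 0.583 in every 1000000 counts of a library before any scaling. CPM is the count of a gene in every 1000000 counts of its library after scaling by edgeR's TMM factors over the 6 libraries. Mitochondrially encoded genes took 5.55% to 8.62% of the counts in the 4 libraries without vesicles and 0.465% and 0.727% in those with them, and no label separates a library batch from the vesicle treatment. All 9 osteoblast markers were in the table, and 9 were counted in both libraries of the control and vesicle groups and 7 in both dexamethasone libraries. Their summed level was 15820 to 17450 CPM without vesicles and 23390 to 29230 CPM with them, carried by Col1a1, Col1a2, Sparc and Spp1. Spp1 went against the sum, at 10250 to 11310 CPM without vesicles and 6104 and 4405 CPM with them, and the maturation markers Alpl, Bglap and Ibsp stood at no more than 6.57 CPM in any library. Of 8 endothelial markers 6 were in the table, with sums of 361 to 416 CPM without vesicles and 242 to 290.3 CPM with them. Cd34 alone made up nearly all of this, at 359 to 411 CPM without vesicles and 289 and 239 CPM with them. Cdh5 was at 0 in control, Tek and Prom1 in dexamethasone, and all 3 with vesicles. Of 5 blood and macrophage markers 3 were in the table, with sums of 6.11 to 12.2 CPM without vesicles and 28.7 and 70.3 CPM with them. The sums with vesicles came from Cd14, at 24.2 and 33.4 CPM, and Csf1r, at 4.4 and 37.0 CPM. Adgre1 was at 0 with vesicles, and Ptprc and Itgam were not in the table. The part of these differences in the results below was not tested.

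Mt1 (ENSMUSG00000031765.8) lies on the plus strand of chromosome 8 from 94179082 to 94180327 in GRCm38. Mt2 (ENSMUSG00000031762.7) lies upstream on the same strand from 94172664 to 94173568, so that 5513 bases separate its end from the start of Mt1. Mtf1 (ENSMUSG00000028890.13) lies on chromosome 4 from 124802104 to 124849800, and Slc30a1 (ENSMUSG00000037434.7) on chromosome 1 from 191906767 to 191913247. All are protein-coding genes in the GENCODE M21 annotation. Mt2 overlaps Gm45774, Mtf1 overlaps 1110065P20Rik, and Slc30a1 overlaps 1700034H15Rik, each on the opposite strand, and reads of such pairs can be told apart only if strand was used in the counting. The authors gave HISAT2 a strand setting (RF) for the alignment, and for HTSeq such a setting is not given in the sources used here. The small RNA gene n-R5s192 lies within Mtf1 on the same strand, where strand does not separate them. Mt1 overlaps no gene. The longest run of bases that the Mt1 and Mt2 transcripts share is 20 bases.

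The promoters of Mt1, Mt2 and Slc30a1 are shown because these are the textbook MTF1 targets whose levels are compared below. Each sequence holds the 250 bases before the RefSeq start of the gene in GRCm38.p6, from 5′ to 3′ on the gene's strand. Capitals mark the cores of metal response elements, TGCACNC or TGCGCNC on either strand.
Mt1, chr8:94178839-94179088, plus strand: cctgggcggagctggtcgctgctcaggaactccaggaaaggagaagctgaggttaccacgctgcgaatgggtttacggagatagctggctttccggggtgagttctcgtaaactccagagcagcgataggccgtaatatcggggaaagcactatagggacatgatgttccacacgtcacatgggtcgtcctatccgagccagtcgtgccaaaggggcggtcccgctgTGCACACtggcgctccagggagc
Mt2, chr8:94172368-94172617, plus strand: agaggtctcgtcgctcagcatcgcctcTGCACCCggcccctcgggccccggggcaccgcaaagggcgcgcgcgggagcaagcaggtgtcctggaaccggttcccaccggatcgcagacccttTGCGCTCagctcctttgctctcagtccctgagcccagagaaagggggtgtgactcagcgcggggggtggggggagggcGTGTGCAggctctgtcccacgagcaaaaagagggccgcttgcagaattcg
Slc30a1, chr1:191906531-191906780, plus strand: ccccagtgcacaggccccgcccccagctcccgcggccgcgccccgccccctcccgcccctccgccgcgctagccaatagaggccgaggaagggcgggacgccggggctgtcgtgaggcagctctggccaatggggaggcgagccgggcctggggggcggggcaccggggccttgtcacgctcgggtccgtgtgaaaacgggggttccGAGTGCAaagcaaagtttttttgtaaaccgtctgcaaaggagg

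The search also took in the 50 bases after the start, in windows of 300 bases for 32851 mouse promoters. In these windows Mt1 held 3 cores, at positions -23, +3 and +21 from the start, and 1.97% of all promoters held at least as many. Mt2 held 4 cores, at -223, -128, -50 and +5, which 0.517% of promoters reached. Slc30a1 held 2, at -43 and +31, which 7.11% reached, and Mtf1 held 0. At least 1 core was present in 25.7% of all promoters. The cores at positive positions lie beyond the printed bases. The antioxidant response element TGACNNNGC, found in 12.4% of promoters, was present in Mt2 at -79 and in Slc30a1 at -82. The glucocorticoid half-site AGAACA, found in 19%, was present in Mtf1 at -223. The RefSeq starts differ from those of the first GENCODE transcripts by 7 bases for Mt1, 46 for Mt2 and 14 for Slc30a1. Further annotated starts lie 122 and 152 bases downstream of the RefSeq start for Mt1, 242 for Mt2 and 475 for Slc30a1. For Mtf1 they lie 445 bases upstream and 33 and 129 bases downstream of it. Windows set on these further starts were not searched.

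Both metallothionein genes were among the more abundant transcripts of cells without vesicles, and both were lower with vesicles than with dexamethasone alone. Against control, Mt1 was also lower in both vesicle libraries, while Mt2 overlapped. Mtf1 and Slc30a1 were expressed at a low level throughout. The normalised read count of Mt1 was 867 and 389.7 CPM in control, 858 and 837 CPM in dexamethasone, and 52.9 and 73.6 CPM in dexamethasone + EPC-EVs. Both libraries with vesicles lay below all 4 others, and the lowest of those 4, control replicate 2, was 5.30-fold above the higher of the vesicle libraries. Of all genes tested, 34% had both vesicle libraries below both dexamethasone libraries and 33.9% had them below both control libraries. The share below all 4 was not computed. The group means for Mt1 were 628 ± 337.5, 848 ± 14.8 and 63.2 ± 14.6 CPM (SD, n = 2 each).

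The normalised read count of Mt2 was 176 and 54.7 CPM in control, 236 and 169 CPM in dexamethasone, and 39.4 and 64.7 CPM in dexamethasone + EPC-EVs. Control replicate 2 was again low and lay between the values of the 2 vesicle libraries. The group means for Mt2 were 116 ± 86.0, 202 ± 47.3 and 52.1 ± 17.9 CPM (SD, n = 2 each).

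Mtf1 was counted at 29.3 and 17.5 CPM in control, 42.5 and 31.8 CPM in dexamethasone, and 34.1 and 48.7 CPM in dexamethasone + EPC-EVs. Control replicate 2 was the lowest library for this gene, and both treated groups lay above both control libraries. Of all genes tested, 22.8% lay above control in this way with dexamethasone and 39.1% with dexamethasone + EPC-EVs. The group means for Mtf1 were 23.4 ± 8.35, 37.15 ± 7.57 and 41.4 ± 10.3 CPM (SD, n = 2 each).

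Slc30a1 was counted at 8.47 and 10.95 CPM in control, 7.72 and 10.7 CPM in dexamethasone, and 10.2 and 9.89 CPM in dexamethasone + EPC-EVs, from 52 to 129 counts in a library. The 3 groups overlapped, with means of 9.71 ± 1.75, 9.23 ± 2.14 and 10.05 ± 0.231 CPM (SD, n = 2 each). Mt1 thus ordered the groups as dexamethasone, control and dexamethasone + EPC-EVs, with the first pair overlapping, and Mt2 had the same order of means with control overlapping both other groups.

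**Figure D1:**
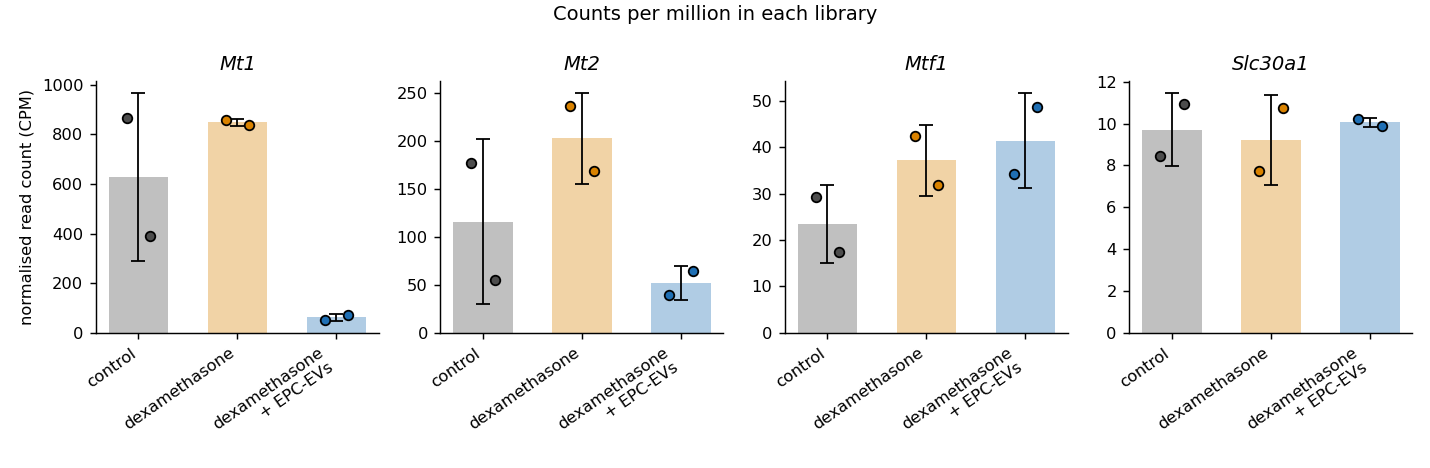
Normalised read counts (CPM, linear axes that start at 0) of Mt1, Mt2, Mtf1 and Slc30a1 in control, dexamethasone and dexamethasone + EPC-EVs. Points are libraries, bars are group means and whiskers are the SD of 2 libraries. For Mt1 the vesicle libraries, at 52.9 and 73.6 CPM, lie below the 4 others, while for Slc30a1 all 6 libraries lie between 7.72 and 10.95 CPM.

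The spread of the metallothioneins within the control group was large. Mt1 differed 2.23-fold and Mt2 3.22-fold between the control libraries, while the median over 9223 genes (mean of 10 CPM or more) was 1.26-fold. A larger fold between the control libraries was found in 6.19% of those genes for Mt1 and in 1.96% for Mt2. The control libraries differed 1.67-fold in Mtf1 and 1.29-fold in Slc30a1, which 17% and 45% of genes exceeded. In the dexamethasone group Mt1 differed by 1.025-fold and Mt2 by 1.40-fold, and in the dexamethasone + EPC-EVs group they differed by 1.39-fold and 1.64-fold.

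Levels of different genes were compared as FPKM, counts scaled to the library total and to the length of the gene. On that scale Mt1 ranked between 25 and 73 of the 21686 genes in the libraries without vesicles and 890 and 570 in those with them. Mt2 ranked between 46 and 273 without vesicles and 491 and 272 with them. Mtf1 ranked between 6982 and 10059 and Slc30a1 between 9881 and 11163 over the 6 libraries. Together Mt1 and Mt2 took 0.105% and 0.0434% of all counts in control, 0.114% and 0.104% in dexamethasone, and 0.00906% and 0.0134% in dexamethasone + EPC-EVs.

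Mt1 was lower with vesicles by a larger factor than Mt2, so the balance between both genes also differed. The ratio of Mt1 to Mt2 FPKM was 2.32 and 3.36 in control, 1.72 and 2.34 in dexamethasone, and 0.633 and 0.537 in dexamethasone + EPC-EVs. Each library carries its own ratio, which does not depend on the scaling between libraries, and the vesicle libraries lay below the 4 others. Which gene was the more abundant with vesicles depended on the length used. The deposited FPKM of Mt1 rests on a length of 1246 bases, the whole gene with its introns, and that of Mt2 on 588 bases. With the first spliced transcript that GENCODE lists for each gene, of 549 and 511 bases, the ratios were 4.57 and 6.63 in control, 3.39 and 4.62 in dexamethasone, and 1.25 and 1.06 in dexamethasone + EPC-EVs. These ratios come from the same libraries as the choice of the genes and were not tested.

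**Figure D2:**
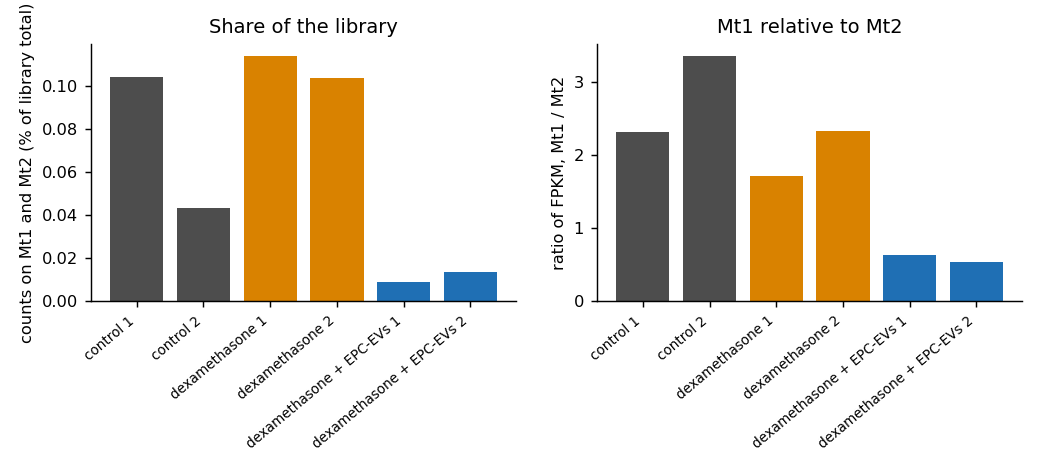
Left, percent of each library's counts on Mt1 and Mt2 together. Right, ratio of Mt1 to Mt2 FPKM in each library. Each bar is 1 library and both axes start at 0. The libraries with vesicles hold 0.00906% and 0.0134% of counts and ratios of 0.633 and 0.537, below the 4 others in both panels.

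The dexamethasone comparison asked whether the hormone alone altered these genes, and no difference passed the test. This comparison was not the one on which the genes were picked, although it shares the dexamethasone libraries with it. Mt1, Mt2 and Mtf1 had means above those of control and Slc30a1 did not. In edgeR's quasi-likelihood test over 12879 genes with Benjamini-Hochberg adjustment, 0 of the 4 genes were called at an adjusted p under 0.05. Over all genes 7 were called, or 0.0544%. None of the 4 had an unadjusted p under 0.05, against 1409 of all genes, or 10.9%. DESeq2 and limma called none of them either, beside 131 of all genes called by DESeq2 and 0 by limma. DESeq2 gave no adjusted p for Mtf1 and Slc30a1.

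The log2 fold change of Mt1 was 0.43 (SE 0.278, 95% interval -0.186 to 1.04), with an adjusted p of 0.60 from edgeR. That of Mt2 was 0.80 (SE 0.397, 95% interval -0.0782 to 1.68), with an adjusted p of 0.490 from edgeR. The upper ends of these intervals, 1.04 and 1.68, show how large a difference 2 libraries a group could have missed. Mtf1 had a log2 fold change of 0.66 (SE 0.320, 95% interval -0.0505 to 1.36) and an adjusted p of 0.486 from edgeR. Its dexamethasone libraries both lay above both control libraries, as did those of 22.8% of all genes tested. Slc30a1 had a log2 fold change of -0.08 (SE 0.473, 95% interval -1.12 to 0.967) and an adjusted p of 0.977 from edgeR.

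Control replicate 2 decided the direction for Mt1 and much of the size for Mt2 and Mtf1. Without it the log2 fold change of Mt1 was -0.0254, that of Mt2 0.20 and that of Mtf1 0.35. Without control replicate 1 the values were 1.12 for Mt1, 1.89 for Mt2 and 1.09 for Mtf1, and edgeR called all 3 with adjusted p of 7.98e-10, 7.18e-11 and 0.0132. In that fit the lone control library is assumed to vary as the dexamethasone libraries do, and 2200 of all genes were called. Slc30a1 was not called with any library left out, at log2 fold changes of -0.33 to 0.14.

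**Figure D3:**
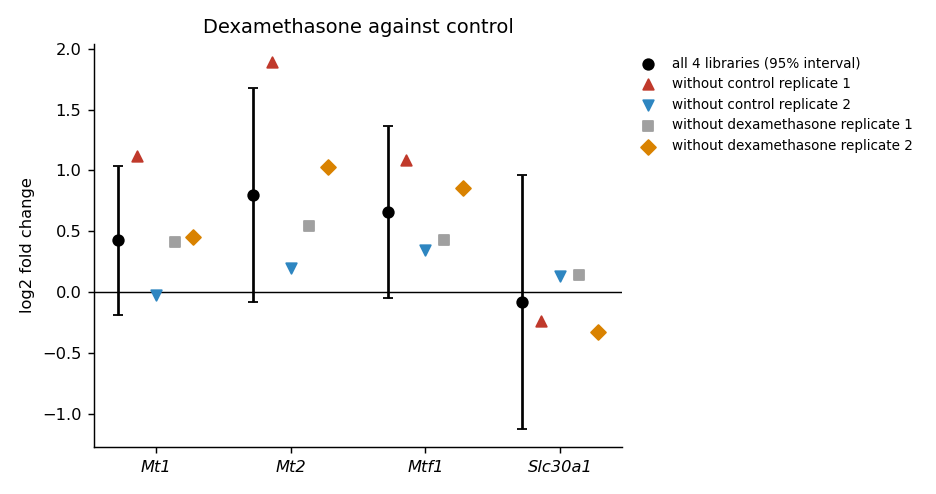
Log2 fold change of dexamethasone over control for the 4 genes, with all 4 libraries (black, 95% interval) and with each library left out in turn (coloured). The line marks no difference. Without control replicate 1 the values of Mt1, Mt2 and Mtf1 stand at 1.12, 1.89 and 1.09, and without control replicate 2 at -0.0254, 0.20 and 0.35.

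In dexamethasone + EPC-EVs against dexamethasone, both metallothionein genes were lower with vesicles, and Mtf1 and Slc30a1 overlapped between the groups. These values describe the contrast on which Mt1 and Mt2 were picked. The log2 fold change of Mt1 was -3.79 (SE 0.167), or 13.8-fold lower, and 155 of 13556 genes had a lower one. That of Mt2 was -2.004 (SE 0.232), or 4.01-fold lower, and 657 genes had a lower one. Over all genes tested, 18.9% were called lower and 34% had both vesicle libraries below both dexamethasone libraries. Mtf1 differed by 0.11 (SE 0.240) and Slc30a1 by 0.08 (SE 0.375) on the log2 scale. In bulk RNA, fewer cells that carry a transcript and less of it in each cell cannot be told apart.

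Against control, the vesicle group shared its libraries with the comparison above, and the values are again a description. The log2 fold change of Mt1 was -3.36 (SE 0.372), or 10.3-fold lower, without overlap, beside 33.9% of all 13511 genes whose vesicle libraries both lay below control. Mt2 was 2.30-fold lower, with a log2 fold change of -1.20 (SE 0.477), and its groups overlapped. Without control replicate 1 this difference in Mt2 was -0.0827 and that in Mt1 was -2.63. Mtf1 differed by 0.77 (SE 0.333) and lay above control without overlap, as did 39.1% of genes. Slc30a1 differed by 0.00 (SE 0.421).

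The other genes of zinc transport were examined from lists of the Slc30 and Slc39 families. Mt3, Mt4, Slc30a8 and Slc30a10 were not found by name among the genes of the series and could not be analysed. Of the other zinc exporters 5 passed the filter on low counts, and of the zinc importers 9. Between dexamethasone and control, 0 of these 14 genes were called by edgeR. Slc30a4 and Slc30a5 had an unadjusted p under 0.05, beside 10.9% of all genes. DESeq2 called 0 of the 14, beside 131 of all genes. The median log2 fold change was -0.43 for the exporters and 0.40 for the importers, beside 0.01 for all genes tested.

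With vesicles against dexamethasone, 1 exporter and 3 importers rose and 1 importer fell, beside 39.8% of all genes called in this comparison, 20.9% higher and 18.9% lower. Slc39a3, a zinc importer of the plasma membrane, was counted at 6.70 and 6.62 CPM in dexamethasone and at 24.2 and 33.99 CPM with vesicles. Its log2 fold change was 2.08 (SE 0.308, adjusted p = 0.000306 by edgeR). Control replicate 2 held 4 counts of it and control replicate 1 held 39. Slc39a14, an importer of zinc, iron and manganese, was at 262 and 243 CPM in dexamethasone and at 114 and 129 CPM with vesicles. It fell by 1.10 on the log2 scale (SE 0.136, adjusted p = 8.72e-05 by edgeR). Both calls were made under all 17 alternative settings.

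Slc39a9 and Slc39a11 also rose with vesicles, with log2 fold changes of 0.66 (adjusted p = 0.0298 by edgeR) and 1.85 (adjusted p = 0.00438 by edgeR). The call of Slc39a9 was made in 11 of the 17 alternatives and that of Slc39a11 in 15. Slc30a5, which loads zinc into the secretory pathway, rose by 0.63 (adjusted p = 0.0356 by edgeR), a call made in 10 of them. The 4 other exporters had log2 fold changes from -0.36 to 0.55 and were not called. The median was -0.24 for the 5 exporters and 0.25 for the 9 importers, beside 0.01 for all genes. Against control, Slc39a1, Slc39a3, Slc39a9 and Slc39a11 were called higher with vesicles, and Slc39a14 and Slc30a4 lower, beside 36.4% of all genes called there, 19.1% higher and 17.2% lower. Of the 17 alternatives, 17 called Slc39a3, 16 Slc39a11, 14 Slc30a4, 12 Slc39a9, 12 Slc39a14 and 8 Slc39a1.

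**Figure D4:**
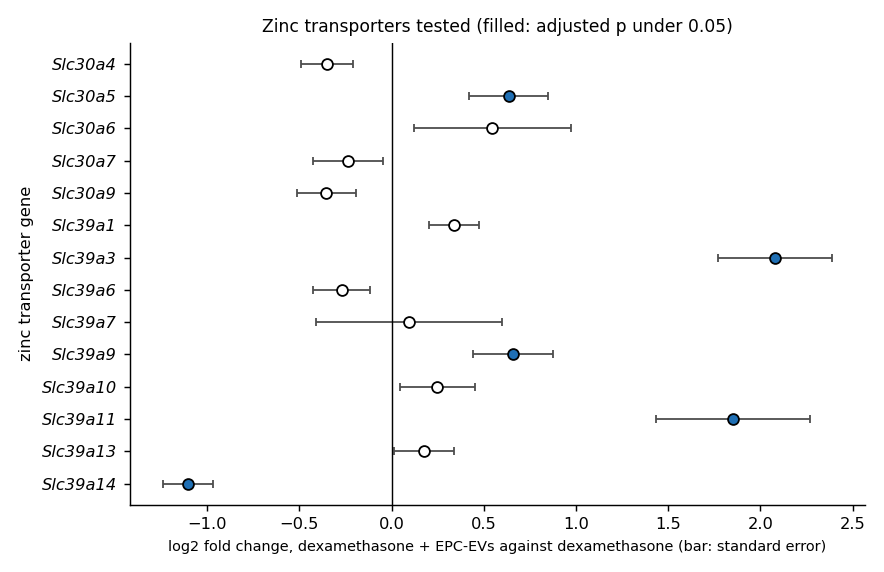
Log2 fold change of dexamethasone + EPC-EVs over dexamethasone for the 5 other Slc30 exporters and 9 Slc39 importers that passed the filter. Bars are standard errors and filled points have an adjusted p under 0.05 by edgeR. Slc39a3, at 2.08, is farthest to the right and Slc39a14, at -1.10, farthest to the left.

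Members left out by the filter had few counts. Slc30a3 had at most 2 counts in a library, Slc39a8 at most 4, Slc39a2 at most 7, Slc39a5 and Slc39a12 at most 8, Slc39a4 at most 9 and Slc30a2 at most 14. They were not tested with the filter in place.

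Of 7 further genes described as MTF1 targets that were tested with vesicles against dexamethasone, edgeR called 1 higher and 1 lower, beside 39.8% of all genes called. A further gene, Gclc, had a log2 fold change of -0.56 that was not called here and was called in 7 of the 17 alternatives. Ndrg1, a gene induced by stress and hypoxia, was at 183 and 176 CPM in dexamethasone and at 27.6 and 22.6 CPM with vesicles, and it fell by 2.88 on the log2 scale (SE 0.166, adjusted p = 6.35e-07 by edgeR). Csrp1, a LIM domain protein of the cytoskeleton, rose by 0.82 (SE 0.132, adjusted p = 0.00051 by edgeR). The importer Slc39a10, a gene that MTF1 represses, had a log2 fold change of 0.25 and was not called. Between dexamethasone and control 0 of 6 were called, although Gclc had an unadjusted p under 0.05, beside 10.9% of all genes, and was called by DESeq2. Pgf had at most 24 counts and was not tested.

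Metallothioneins also bind copper, and 10 copper handling genes were tested, of which 3 were called with vesicles against dexamethasone, beside 39.8% of all genes. The copper chaperone Atox1 rose from 7.62 ± 0.888 to 24.6 ± 2.38 CPM (SD, n = 2 each), a log2 fold change of 1.64 (adjusted p = 0.00126 by edgeR). The copper transporter Slc31a2 fell by 1.15 (adjusted p = 0.0047 by edgeR) and the copper exporter Atp7a by 0.90 (adjusted p = 0.00112 by edgeR) on the log2 scale. With a trend on base composition and gene length taken out, the calls of Atox1 and Atp7a were lost, and that of Slc31a2 was lost without dexamethasone replicate 2. Between dexamethasone and control 0 of the 10 were called, with 1, Commd1, at an unadjusted p under 0.05, beside 10.9% of all genes. DESeq2 called 0 of the 10, beside 131 of all genes.

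Because metallothionein genes respond to glucocorticoids and to oxidants, the values of both groups of genes were set beside them. Of 9 glucocorticoid receptor targets tested, 0 were called between dexamethasone and control, with a median log2 fold change of -0.09. Of these, Dusp1 and Errfi1 had an unadjusted p under 0.05, both with negative log2 fold changes (-0.44 and -0.53), beside 10.9% of all genes at that p. DESeq2 called 0 of the 9, beside 131 of all genes. Tsc22d3, which encodes the leucine zipper protein GILZ, was at 35.8 and 24.7 CPM in control and at 25.6 and 31.6 CPM in dexamethasone. With vesicles it stood at 94.3 and 217 CPM, and against dexamethasone it rose together with Fkbp5, Sgk1, Dusp1 and Zfp36, 5 of the 9, beside 20.9% of all genes called higher. The calls of Tsc22d3, Dusp1 and Zfp36 were made under all 17 alternatives, that of Sgk1 in 15 and that of Fkbp5 in 12. Against control, Fkbp5, Tsc22d3, Dusp1 and Zfp36 were called higher with vesicles, 4 of the 9, beside 19.1% of all genes. Errfi1 was called lower there, with a log2 fold change of -0.85, beside 17.2% of all genes, and Sgk1 was not called.

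The 6 oxidative stress genes of the NRF2 pathway had positive log2 fold changes in dexamethasone against control, with a median of 1.11. EdgeR called 0 of them, 5 had an unadjusted p under 0.05, beside 10.9% of all genes, and DESeq2 called 3, beside 131 of all genes. With the replicate number as a block edgeR called 2 of them, beside 43 of all genes. Hmox1, which breaks down haem, was at 94.2 and 56.1 CPM in control, 188 and 177 CPM in dexamethasone, and 113 and 69.8 CPM with vesicles. With vesicles against dexamethasone 5 of the 6 fell by edgeR's test, Hmox1, Nqo1, Gclm, Txnrd1 and Slc7a11, with a median over the 6 of -0.997, beside 18.9% of all genes called lower. The calls of Hmox1 and Txnrd1 were made under all 17 alternatives, that of Slc7a11 in 16, that of Nqo1 in 15 and that of Gclm in 14. Against control 1 of these 6, Txnrd1, was called, with a log2 fold change of -0.71, beside 17.2% of all genes called lower, and the other 5 ranged from -0.87 for Slc7a11 to 0.76 for Srxn1.

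The genes with the most similar profiles over the 6 libraries were found by the distance between mean-centred log2 CPM among 9223 genes. Nearest to Mt1 were Tnfrsf9 at 0.608, Ero1l at 0.860, Tmsb10 at 0.889, Adam8 at 0.902 and Zbp1 at 0.907. Mt2 was the 316th gene from Mt1, at 2.44. Tnfrsf9, a receptor of the tumour necrosis factor family, was at 453 and 304 CPM in control, 494 and 417 CPM in dexamethasone, and 39.7 and 41.6 CPM with vesicles. Like Mt1 it was lower in control replicate 2 than in replicate 1, a likeness that follows in part from its choice by nearest profile.

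Nearest to Mt2 were Slc7a11 at 0.898, Nr4a2 at 1.03, Nid1 at 1.04, Serpina3n at 1.04 and Klhl28 at 1.08. Slc7a11, the cystine importer subunit, was at 11.1 and 5.97 CPM in control, 21.4 and 18.0 CPM in dexamethasone, and 2.30 and 7.38 CPM with vesicles. Mtf1 was nearest to Psmf1, Trim3, Ppil2, 0610009O20Rik and Itpripl2, at 0.335 to 0.355. Slc30a1 was nearest to Eif2ak4, Wdr70, Helb, Cnksr3 and Cul4a, at 0.137 to 0.182. These distances describe 6 libraries that also differ in depth and mitochondrial share, and they carry no test.

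**Figure D5:**
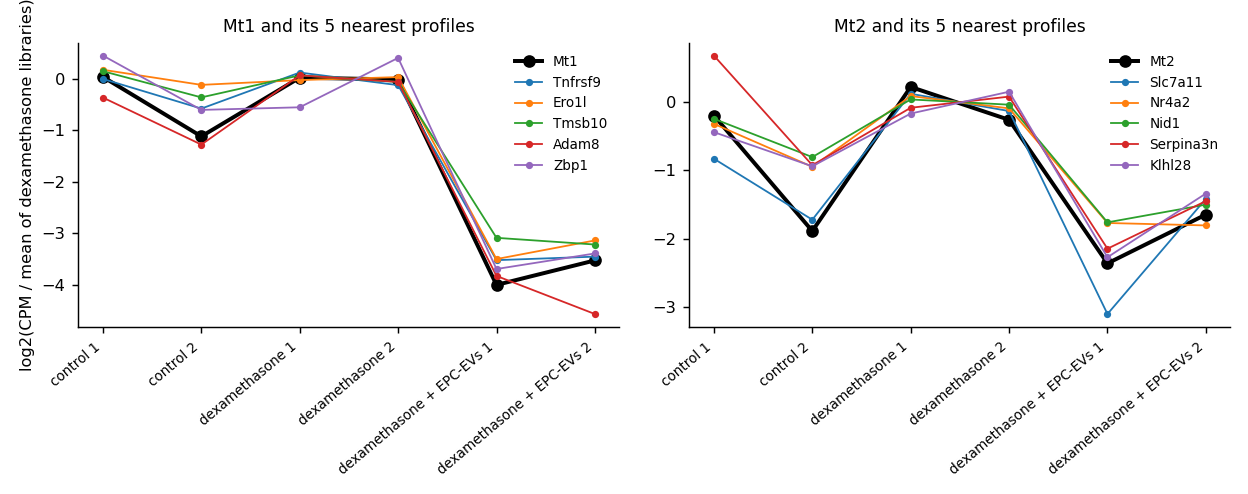
Log2 of CPM relative to the mean of the dexamethasone libraries for Mt1 (left) and Mt2 (right), in black, with the 5 genes of most similar profile in colour. The horizontal axis lists the 6 libraries, and lines join them only to guide the eye. Tnfrsf9 lies nearest to Mt1, at a distance of 0.608, and Slc7a11 nearest to Mt2, at 0.898.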

How the data were processed

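The 6 libraries measure RNA of cells of MC3T3-E1 Subclone 14. The authors aligned the reads with HISAT2, counted them on genes with HTSeq 0.6.1 (GRCm38) and deposited the counts as they were. The deposited FPKM values follow from these counts, a length for each gene and the total of the library. The submitters' processing notes also name DESeq2 1.26.0.

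The deposited counts were analysed with edgeR (version 4.0.16, R 4.3.3): TMM normalization, filterByExpr, the robust quasi-likelihood test and Benjamini-Hochberg adjustment over all genes tested, on the 4 libraries of each comparison. An adjusted p under 0.05 was called. The study calls a group's libraries biological replicates but does not say how they were kept apart, so the p-values measure the spread between these samples. Their counts differed by more than sampling noise in each group, at 16.6 (control), 7.17 (dexamethasone) and 20.1 (dexamethasone + EPC-EVs) for chi-square over its degrees of freedom. The test was tried on simulated data.

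The members and gene lists were chosen with earlier results of these data known, and the members are described without a test in both comparisons with vesicles. Besides cell type markers and overlapping genes, the genes named are the 4 members, list genes that were called or left out by the filter, and for each member the 5 genes of nearest profile. Slc39a10, Gclc, Commd1, Errfi1, Srxn1 and the values of Tsc22d3 and Hmox1 were singled out after their values were seen.

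The alternatives were other normalizations and filters, DESeq2 1.42.0, limma 3.58.1 on log2(FPKM + 1) and log2(FPKM + 0.1), a joint fit of the 6 libraries, a block on the replicate number, each library left out in turn, and removal of a trend on length. Removal of a trend on both GC and length (loess span 0.4) was chosen after seeing the data. Promoters are from RefSeq (GRCm38.p6), where all 4 members matched. The table of transcripts was not used here.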

Additional observations from a re-analysis of the deposited data

How the results depend on the processing

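Each comparison was repeated under 17 alternatives. The log2 fold change of Mt1 and Mt2 in dexamethasone + EPC-EVs against dexamethasone was negative under all 17, at -4.20 to -3.56 and -2.38 to -1.68. Both genes were picked partly for this fall and the alternatives use the same libraries. The ranges therefore describe how its size depends on processing and are no test of it. The value of -4.20 for Mt1 came after removal of the GC and length trend. That setting also gave -0.23 for Slc30a1 in this comparison, and -4.10 for Mt1 and -0.61 for Slc30a1 against control.

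With 1 library left out, Slc30a1 ranged from -0.12 to 0.34 and Mtf1 from -0.15 to 0.35 against dexamethasone, so the sign of neither was kept. Against control, with 1 library left out, the vesicle group ranged from -3.81 to -2.63 for Mt1, -1.79 to -0.0827 for Mt2, 0.47 to 1.23 for Mtf1 and -0.13 to 0.22 for Slc30a1. For dexamethasone against control these ranges were -0.0254 to 1.12 for Mt1, 0.20 to 1.89 for Mt2, 0.35 to 1.09 for Mtf1 and -0.33 to 0.14 for Slc30a1. Slc30a1 changed sign there without control replicate 2, without dexamethasone replicate 1 and with library totals only (0.000271), all without a call.

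Between dexamethasone and control the number of list genes called was 0 in the main analysis, 4 by DESeq2, 5 without the filter, 2 after the GC and length trend, and 0 to 14 with 1 library left out, 14 without control replicate 1. Over all genes 7 were called, 131 by DESeq2, 248 without the filter, 1 without mitochondrially encoded genes, 15 after the length trend, 44 after the GC and length trend, 0 by limma, and up to 2200 with 1 library left out. With vesicles against dexamethasone 13 to 21 list genes were called with 1 library left out, against 20, and 3250 of all genes without dexamethasone replicate 2, against 5397. The cause was not tested.

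Libraries with the same replicate number did not deviate together over genes (correlations of 0.0546, 0.0208 and 0.00649). The labels do not say whether such samples shared a culture or a batch. The replicate block called 2 list genes and 43 of all genes between dexamethasone and control and changed no call of a member there. Depth limits Slc30a1 most, with 52 to 129 counts a library.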
